A study of Mus musculus with 6 samples.

Results

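The genes described here are 9 genes that mark striatal projection neurons, *Drd1a*, *Tac1*, *Drd2*, *Adora2a*, *Penk*, *Gpr6*, *Ppp1r1b*, *Rgs9* and *Pde10a*, read in RNA from the cerebral cortex of 6 male mice. They are 9 of the 22527 gene symbols on the array, and 18 of its 45077 probe sets, a probe set being a group of short probes read together as a single signal. The set was chosen by gene symbol when the group means and both deposited comparisons of these arrays were already known, so its values are given as a description and no test was run on them.

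SAMP8 is an inbred mouse strain with accelerated senescence, and SAMR1 is a related strain that resists it. Of 3 pairs of mice, SAMR1 + Water received water, SAMP8 + Water received water as the SAMP8 control, and SAMP8 + STEE received sugarcane top ethanolic extract (STEE) by mouth at 20 mg/kg. Administration lasted 30 days and went on through 8 days of behavioral testing in a water maze, which all groups underwent. The labels give the mice as 16 weeks old. Cortex was taken after the maze, so 16 weeks need not be the age at that step. Per the methods, mice of the study also drank the thymidine analog BrdU for part of the administration. SAMP8 and SAMR1 are separate strains with different genetic backgrounds. The cause of a difference between the groups of these strains was not tested.

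Each value is the authors' mean log2 signal over the 2 arrays of a group, rounded to 2 decimals. Values of single mice were not analysed here, and therefore no difference could be set against the spread between mice and none was tested. A difference of at least 0.25 on the log2 scale, a 1.19-fold change, was counted as higher or lower, and the share of all genes that passed the same limit is given with the first count of each comparison. Where a gene had several probe sets, the one with the highest mean over the 3 groups stood for it in such counts. The median log2 signal over the whole array was 4.16 in SAMR1 and 4.15 in either SAMP8 group.

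Striatal projection neurons, also called medium spiny neurons, are the GABAergic output cells of the striatum, which lies directly beneath the cortex and receives its input together with dopamine from the midbrain. Those of the direct pathway carry the dopamine receptor D1 and make the tachykinin precursor Tac1, whereas those of the indirect pathway carry the dopamine receptor D2 and the adenosine receptor Adora2a and make proenkephalin. D1 and Adora2a receptors raise cAMP and D2 receptors lower it, and both kinds of neuron share the machinery that turns cAMP into changes of phosphorylation. Several of these genes are also active in some neurons of the cortex, although at a lower level than in the striatum.

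Promoters of 6 of the 9 genes were found in the RefSeq table of GRCm38.p6, with 250 bases before and 50 bases after the start of the transcript. Of these, 4 are shown because they belong to the pair of dopamine receptors that mark the pathways, to the gene with the largest strain difference, and to the peptide gene of the direct pathway. They run 5′ to 3′ on the strand of the gene. Capitals mark TGACG, the core of the cAMP response element, the GC box GGGCGG and the E-box CACGTG, on either strand, so that CGTCA and CCGCCC are the first pair read from the other strand.

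*Gpr6*, chr10:41072241-41072540, minus strand
Gpr6: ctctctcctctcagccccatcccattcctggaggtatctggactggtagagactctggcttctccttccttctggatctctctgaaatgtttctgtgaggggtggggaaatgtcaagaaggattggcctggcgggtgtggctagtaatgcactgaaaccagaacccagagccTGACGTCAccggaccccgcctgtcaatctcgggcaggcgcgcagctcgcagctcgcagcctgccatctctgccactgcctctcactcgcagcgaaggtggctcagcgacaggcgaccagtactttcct

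*Tac1*, chr6:7554811-7555110, plus strand
Tac1: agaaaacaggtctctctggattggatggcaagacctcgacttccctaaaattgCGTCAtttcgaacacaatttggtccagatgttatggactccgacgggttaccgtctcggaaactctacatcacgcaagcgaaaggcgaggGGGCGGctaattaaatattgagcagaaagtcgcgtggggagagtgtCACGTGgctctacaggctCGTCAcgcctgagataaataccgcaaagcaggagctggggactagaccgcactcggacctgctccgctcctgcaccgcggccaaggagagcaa

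*Drd1a* (RefSeq symbol *Drd1*), chr13:54055609-54055908, minus strand, the more upstream of 2 starts listed
Drd1a: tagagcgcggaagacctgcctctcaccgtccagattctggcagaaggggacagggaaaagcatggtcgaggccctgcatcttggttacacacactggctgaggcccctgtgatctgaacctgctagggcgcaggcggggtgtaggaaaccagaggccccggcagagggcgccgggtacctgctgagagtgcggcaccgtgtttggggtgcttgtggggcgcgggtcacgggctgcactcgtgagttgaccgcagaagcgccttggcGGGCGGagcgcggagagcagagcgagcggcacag

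*Drd2*, chr9:49340153-49340452, plus strand
Drd2: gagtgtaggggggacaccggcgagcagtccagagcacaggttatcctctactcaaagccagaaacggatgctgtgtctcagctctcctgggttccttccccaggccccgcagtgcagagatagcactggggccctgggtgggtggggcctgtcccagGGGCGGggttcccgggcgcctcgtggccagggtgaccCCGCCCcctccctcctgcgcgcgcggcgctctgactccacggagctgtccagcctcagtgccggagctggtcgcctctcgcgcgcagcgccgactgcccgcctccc

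The full element TGACGTCA, which reads the same on both strands and contains TGACG on each, was found in the *Gpr6* promoter and in 1.79% of the 32851 promoters of the table. TGACG occurred in the promoters of 2 of the 6 genes, *Gpr6* and *Tac1*, and in 20.8% of all promoters. GGGCGG occurred in 5 of the 6 genes, all except *Gpr6*, and in 35.7% of all promoters. CACGTG was found for *Tac1* alone, against 7.15% of all promoters, and TATAAA for *Rgs9* alone, against 13.6%. These are matches of letters and not measured binding.

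The first comparison, SAMP8 control vs. SAMR1, asks how the cortex of the senescence-prone strain differs from that of the resistant strain. All 9 genes stood at least 0.25 above SAMR1 in the SAMP8 control, from 0.32 for *Rgs9* to 1.03 for *Gpr6*, with a median of 0.61 on the log2 scale. Among all 22527 genes, 4.25% were higher and 3.84% lower by this limit, and the median difference was 0.00. Since the comparison was known when the genes were chosen, nothing is read from the 9 of 9 against that share.

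**Figure D1:**
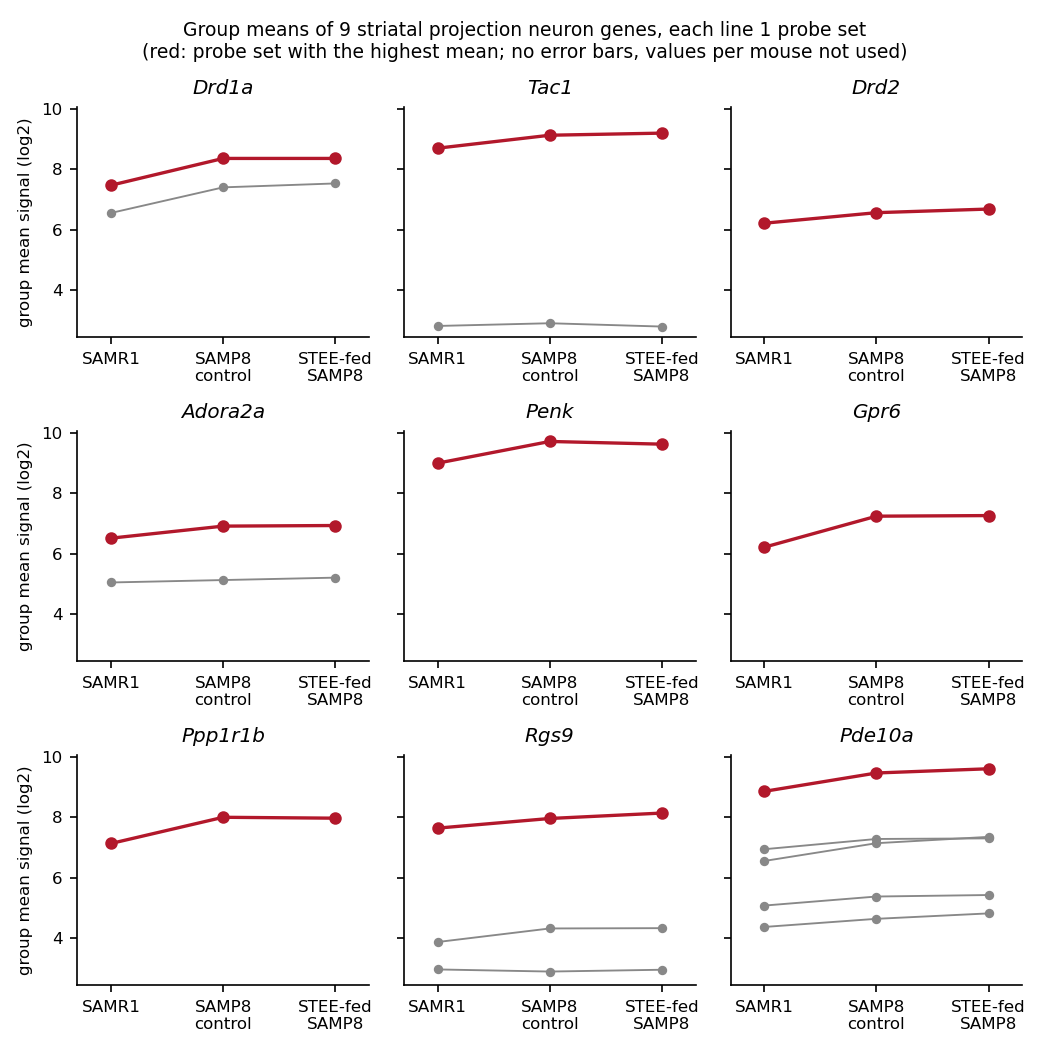
Authors' mean signal (log2, vertical axis) in SAMR1, SAMP8 control and STEE-fed SAMP8 for each of the 9 genes, 1 line for each of the 18 probe sets, in red for the probe set with the highest mean; there are no error bars because only group means were used. Every red line lies higher in both SAMP8 groups than in SAMR1, most steeply for *Gpr6* (6.21 to 7.24), and from SAMP8 control to STEE-fed SAMP8 they differ by -0.09 (*Penk*) to 0.18 (*Rgs9*).

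Genes of the direct pathway were higher in both SAMP8 groups. *Drd1a*, which encodes the D1 receptor, had a mean log2 signal of 7.47 in SAMR1, 8.36 in the control and 8.36 in the STEE-fed SAMP8. SAMP8 control thus stood 0.89 above SAMR1, a 1.85-fold difference, and 102 of the 22527 genes were at least this much higher. The other *Drd1a* probe set gave 6.55, 7.40 and 7.53 in the same order, a difference of 0.85, so both probe sets of the gene gave nearly the same difference.

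*Tac1*, the precursor of substance P and neurokinin A, had group means of 8.70, 9.13 and 9.20. It was 0.43 above SAMR1 in the control mice of SAMP8, and 306 of all genes were at least this much higher. Its other probe set stayed between 2.78 and 2.89 in the 3 groups, below the median of all probe sets, and differed by 0.09.

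Among the genes of the indirect pathway the differences between SAMP8 control and SAMR1 covered the widest range, from 0.35 to 1.03. *Drd2*, the D2 receptor, had the smallest, with group means of 6.21 in SAMR1, 6.56 in the control and 6.68 in the STEE-fed SAMP8. *Gpr6*, an orphan receptor that signals through cAMP without a ligand, had the largest of all 9 genes, with 6.21, 7.24 and 7.26. The latter is a 2.04-fold difference between SAMP8 control and SAMR1, reached or passed by 85 genes. Each of the 2 genes has a single probe set, so no other probe set stands beside these values.

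*Penk*, which encodes proenkephalin, the source of the enkephalin opioid peptides, had group means of 9.0 in SAMR1, 9.72 in the control and 9.63 in the STEE-fed SAMP8. The control SAMP8 mice exceeded SAMR1 by 0.72, or 1.65-fold. *Adora2a*, the adenosine receptor that opposes D2 signaling in the same neurons, gave 6.51, 6.91 and 6.93 at the probe set with the higher signal. The other *Adora2a* probe set, with 5.04, 5.12 and 5.20, differed by 0.08 against 0.40, although its signal was above the median of all probe sets. The probe sets of *Adora2a* thus gave the same sign and a different size.

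The pair of receptors and the pair of peptides differed between the pathways in opposite directions. *Drd1a* exceeded *Drd2* in its difference between SAMP8 control and SAMR1 by 0.54, whereas *Tac1* fell short of *Penk* by 0.29. The median difference was 0.66 over the 2 genes of the direct pathway and 0.56 over the 4 of the indirect pathway. Without a spread between mice these values neither show nor exclude an order by pathway.

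The 3 genes active in both pathways encode parts of cAMP and G protein signaling. *Ppp1r1b*, which encodes DARPP-32, a protein that inhibits protein phosphatase 1 once protein kinase A has phosphorylated it, had group means of 7.13 in SAMR1, 8.00 in the control and 7.97 in the STEE-fed SAMP8. The difference of 0.87 between SAMP8 control and SAMR1 was close to that of *Drd1a*. *Pde10a*, the phosphodiesterase that breaks down cAMP and cGMP in these neurons, had 8.86, 9.47 and 9.61 at its probe set with the highest signal. All 5 *Pde10a* probe sets stood at least 0.25 above SAMR1 in the SAMP8 control, from 0.27 to 0.61.

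*Rgs9*, which speeds the shutdown of G protein signals behind D2 and opioid receptors, had the smallest difference of the 9 genes, with group means of 7.64, 7.96 and 8.14. Its second probe set differed by 0.45 between SAMP8 control and SAMR1, with group means of 3.86, 4.31 and 4.32. The remaining probe set gave 2.95, 2.88 and 2.94, below the median of all probe sets, and was the single probe set of the 18 with a lower mean in SAMP8 control. The size of the *Rgs9* difference therefore depended on the probe set.

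Over all 18 probe sets, 15 exceeded SAMR1 by at least 0.25 in the SAMP8 control, against 4.32% of the 45077 probe sets of the array, and none was lower by that much. The 3 others were 1 probe set each of *Tac1*, *Adora2a* and *Rgs9*. Those of *Tac1* and *Rgs9* were the only 2 of the 18 probe sets at or below the median signal of the array.

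**Figure D2:**
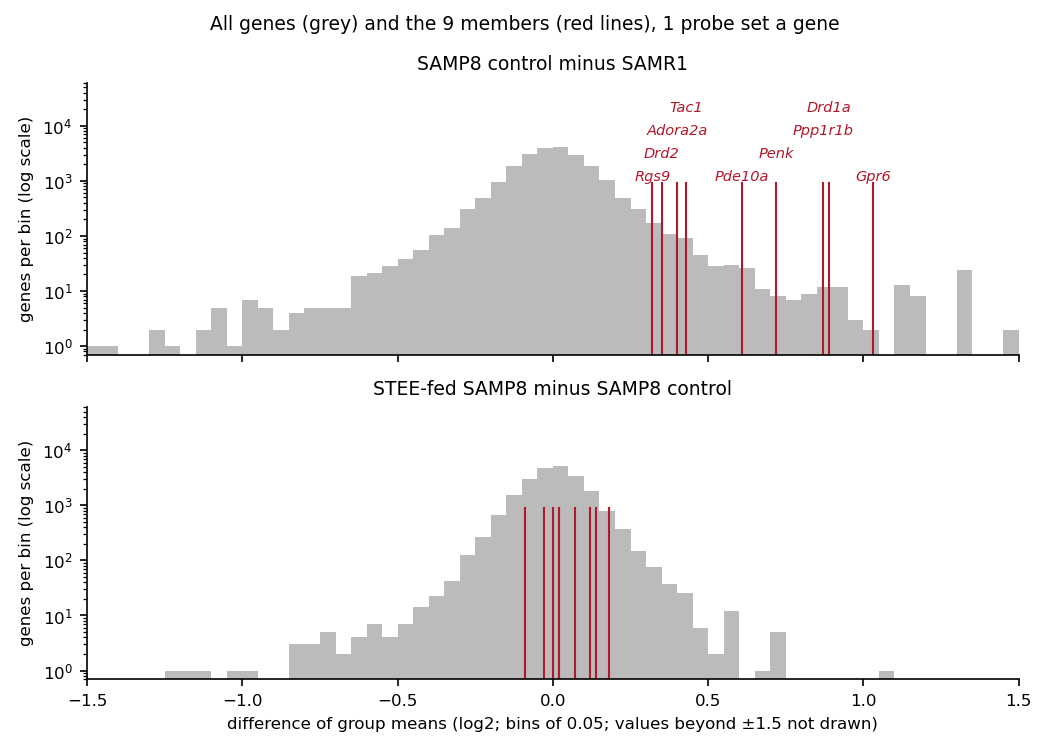
Number of genes (vertical axis, log scale) by difference of group means (horizontal axis, log2, in bins of 0.05), for SAMP8 control minus SAMR1 above and STEE-fed SAMP8 minus SAMP8 control below, with red lines at the 9 genes. In the upper panel all red lines lie between 0.32 and 1.03, and in the lower panel between -0.09 and 0.18.

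The second comparison, STEE-fed SAMP8 vs. SAMP8 control, asks what the extract changed within SAMP8, and it shares the SAMP8 control arrays with the first. None of the 9 genes was higher or lower by 0.25, where 1.40% of all genes were higher and 1.22% lower. Their differences ran from -0.09 for *Penk* to 0.18 for *Rgs9*, with a median of 0.02. *Pde10a* followed *Rgs9* with 0.14, *Drd2* had 0.12 and *Tac1* 0.07, while *Gpr6* and *Adora2a* had 0.02, *Drd1a* 0.00 and *Ppp1r1b* -0.03. The median absolute difference over all genes was 0.06. Of all genes, 4.12% were at least as much higher with STEE as *Rgs9*, 7.73% as *Pde10a* and 10.8% as *Drd2*.

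None of the 18 probe sets reached 0.25 with STEE either. The largest difference was 0.21, at a *Pde10a* probe set with group means of 6.55, 7.14 and 7.35, and all 5 *Pde10a* probe sets were higher with STEE, by 0.02 to 0.21. All 3 *Rgs9* probe sets were higher as well, by 0.01 to 0.18. Probe sets of a gene read the same mice, so they are not separate observations, and 21301 of all 45077 probe sets were above 0. *Tac1* had opposite signs at its probe sets, 0.07 and -0.11. Without a spread between mice these values do not show that the groups were alike.

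STEE-fed SAMP8 and SAMR1 were set side by side as well, a comparison that uses the same arrays as the other 2. All 9 genes were higher in STEE-fed SAMP8 by at least 0.25, from 0.42 for *Adora2a* to 1.05 for *Gpr6*, with a median of 0.63. Of all genes, 5.35% were higher and 3.53% lower by this limit. No gene of the 9 stood nearer to SAMR1 with STEE by more than 0.09, the value of *Penk*.

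Other genes of the same neurons, listed with earlier results of these arrays known, showed the direction of the 9 in part. Of 27 such genes, 17 exceeded SAMR1 by at least 0.25 in the SAMP8 control, none was lower, and the median difference was 0.29. Of all genes, 4.25% were higher and 3.84% lower by that limit. *Rarb*, a retinoic acid receptor of the striatum, had group means of 5.85 in SAMR1, 6.70 in the control and 6.60 in the STEE-fed SAMP8. *Slc35d3*, a transporter-like protein needed for D1 receptors to reach the cell surface, had 4.68, 5.51 and 5.43. These genes differed by 0.85 and 0.83 between SAMP8 control and SAMR1, slightly less than *Drd1a* and *Ppp1r1b*.

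Between 0.54 and 0.60 lay *Ido1*, *Rasgrp2*, *Meis2*, *Scn4b*, *Rxrg* and *Actn2*. *Rasd2*, a small GTPase of the striatum, differed by 0.49. *Gnal* and *Gng7*, which encode subunits of the G protein that couples D1 and Adora2a receptors to adenylyl cyclase, differed by 0.38 and 0.36, and *Adcy5*, that cyclase, by 0.24. *Pdyn*, the prodynorphin of direct pathway neurons, had 4.97, 5.23 and 5.38, and *Chrm4*, their muscarinic receptor, had 3.94, 4.20 and 4.03. *Lrrc10b*, *Syndig1l* and *Ptpn5* differed by 0.34, 0.29 and 0.27.

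The other 10 of the 27 differed by less than 0.25. Among them were the transcription factors *Foxp1* with 0.14, *Foxp2* with 0.24, *Bcl11b* with 0.18 and *Six3* with 0.07. *Pde1b* with 0.20 and *Kcnip2* with 0.11 were among them as well. *Isl1* differed by 0.07, *Drd3*, which the next list holds as well, by -0.05 and *Ebf1* by -0.10. Of the 27, 24 had a mean signal above the median of the array, all except *Chrm4*, *Drd3* and *Ebf1*. With STEE, none of the 27 reached 0.25 in either direction, and their median was 0.00.

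Partners of these genes in the signaling chain were read as well. Of 24 listed genes of dopamine and cAMP signaling, 23 were on the array under their symbols, and 2 were higher in SAMP8 control by at least 0.25, with a median of 0.14 over the list. That is 8.7% of the 23, against 4.25% of all genes, and nothing particular to the list is read from it. The 2 were *Gnb5*, the obligate partner of Rgs9, with group means of 8.10, 8.39 and 8.40, and *Prkar2b*, a regulatory subunit of protein kinase A, with 7.63, 7.89 and 7.97. *Rgs7bp*, which anchors Rgs9 to the membrane, differed by 0.14. *Ppp1ca*, the phosphatase that DARPP-32 inhibits, differed by 0.17 and *Prkaca*, the kinase that phosphorylates it, by -0.10.

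None of 9 receptors for opioids, tachykinins and adenosine differed by 0.25 in either comparison. Only 3 of the 9 were above the median signal of the array, so a difference could be missed in the others. *Oprk1*, *Oprm1* and *Oprd1*, the opioid receptors, differed by -0.15, 0.05 and 0.09 between SAMP8 control and SAMR1, and *Tacr1*, the receptor of substance P, by -0.04. *Oprd1* and *Tacr1* lay below the median signal in all groups. *Adora1*, the adenosine receptor common in the cortex, had 6.93, 6.91 and 7.02. The 5 enzymes that cut peptides out of their precursors or break them down, *Pcsk1*, *Pcsk2*, *Cpe*, *Pam* and *Mme*, also stayed below 0.25 throughout. Of these, *Pcsk1* and *Mme* lay below the median signal in all groups.

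Markers of other cells and regions were read beside these results. All 11 markers of cortical projection neurons were above the median of all probe sets. *Slc17a7*, the vesicular glutamate transporter of the cortex, had group means of 7.05, 7.10 and 7.19. Above the median were also 24 of the 27 other striatal genes and 7 of 9 thalamus and hypothalamus markers. This limit therefore does not check the label of cerebral cortex. Between SAMP8 control and SAMR1, 1 of the 11 was higher by at least 0.25 and 2 were lower, *Cux2* with -0.27 and *Neurod6* with -0.25, and the median was 0.05. None of 5 genes of striatal cholinergic interneurons reached 0.25 in either comparison. *Chat* had group means of 4.30, 4.35 and 4.20, and 4 of the 5 were at or below the median signal of the array.

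Some markers of deeper regions were lower in the SAMP8 groups. Of 9 markers of thalamus and hypothalamus, 6 were lower in SAMP8 control by at least 0.25, against 3.84% of all genes, and none was higher by that much. The other 3, *Lef1*, *Hcrt* and *Trh*, differed by -0.14, -0.10 and 0.06. The list's summed linear signal was 556 in SAMR1, 315 in the control and 327 in the STEE-fed SAMP8. *Pmch*, the melanin-concentrating hormone precursor of the hypothalamus, had group means of 5.79, 3.31 and 3.31, below the median of the array in both SAMP8 groups, and *Tcf7l2*, a transcription factor of the thalamus, had 5.69, 4.72 and 4.66.

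Of 4 genes of dopamine neurons, *Slc6a3*, *Ddc* and *Slc18a2* had differences of -1.09, -1.06 and -0.94 between SAMP8 control and SAMR1, and *Th* differed by -0.11. *Th* and *Slc18a2* lay below the median signal of the array in all groups and *Slc6a3* in both SAMP8 groups, so the size of these differences is uncertain. Their summed linear signal was 111 in SAMR1, 60.2 in the control and 53.2 in the STEE-fed SAMP8. Of 8 myelin markers 6 were lower in SAMP8 control by at least 0.25, with sums of 10980, 9596 and 9352. So were 4 of 7 hippocampus markers, with 110, 93.7 and 92.4, and 3 of 9 choroid plexus markers, with 2205, 1206 and 1599. Of all genes, 3.84% were lower by that limit. At or below the median signal of the array were 5 of the 7 hippocampus markers, *Dsp*, *Lct* and *Fibcd1* of the lower ones among them, and 6 of the 9 choroid plexus markers, with *Kcne2* and *Otx2*. *Ttr*, with group means of 10.20, 8.24 and 9.33, made most of the choroid plexus sum's difference, and the median difference of that list was -0.19. RMA signals have no zero, so no marker was at 0 in any group. The part of these markers in the differences of the 9 genes was not tested, and in RNA of whole tissue fewer cells of a type and less RNA per cell cannot be told apart.

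Markers of astrocytes, microglia and blood differed by less than 0.25 in both comparisons, 13 genes in all. Of 5 markers of endothelium, 1 was higher and 1 lower by at least 0.25 between SAMP8 control and SAMR1. The summed linear signal of the 9 genes was 593, 889 and 917 for the direct pathway, 751, 1209 and 1170 for the indirect pathway and 804, 1214 and 1314 for both, in SAMR1, SAMP8 control and STEE-fed SAMP8, in that order.

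**Figure D3:**
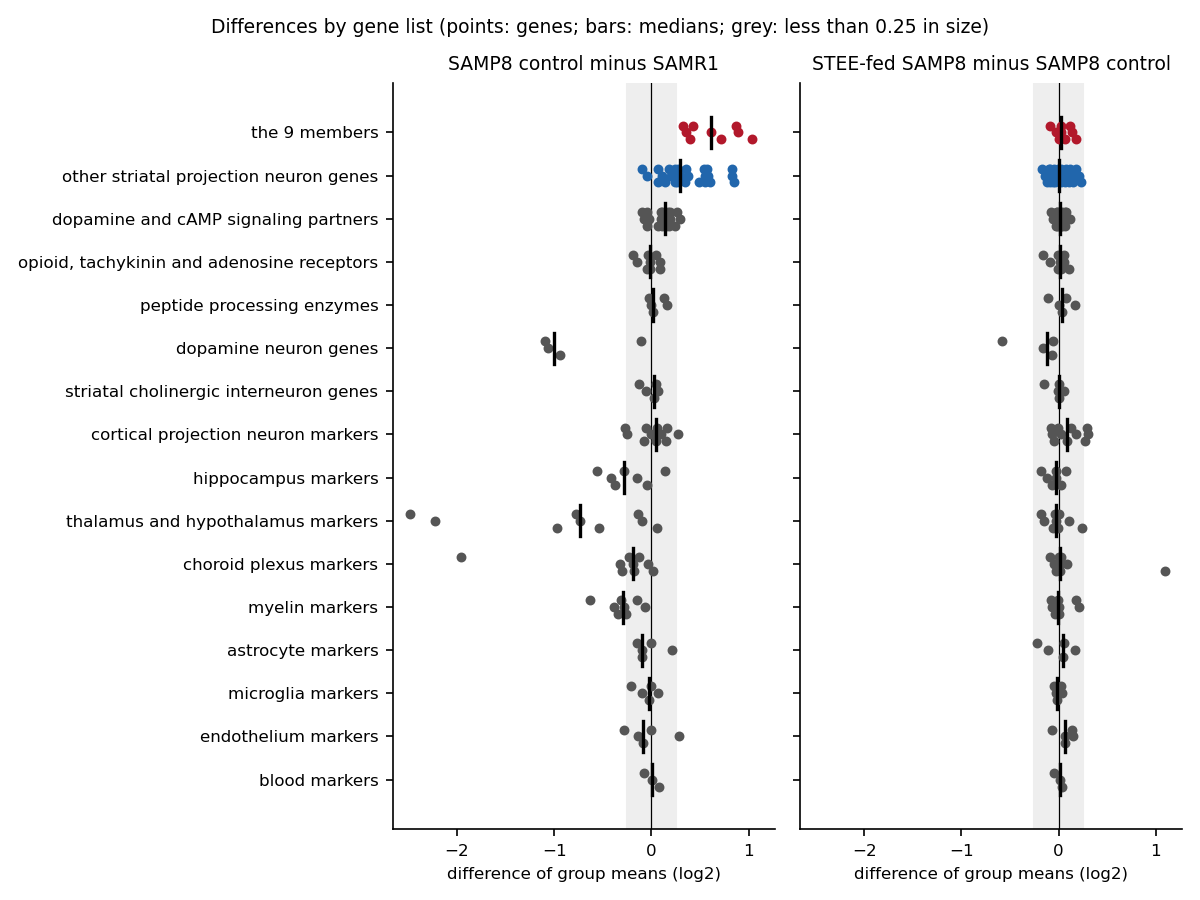
Difference of group means (horizontal axis, log2) for each gene of the lists, SAMP8 control minus SAMR1 at left and STEE-fed SAMP8 minus SAMP8 control at right, with black bars at list medians and a grey band where differences are under 0.25. At left the 9 genes (red, median 0.61) and the 27 other genes of striatal projection neurons (blue, median 0.29) lie to the right, and thalamus and hypothalamus markers (median -0.73) to the left.

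The genes nearest to the 9 in their pattern were sought among all other genes by the Euclidean distance between the 3 group means, each gene centred on its own mean, and the median of the 9 centred profiles. The nearest were *Etv5*, *Ggps1*, *Cthrc1*, *Kcnf1*, *Trim34a*, *Lamp5*, *Ginm1*, *Dach1*, *Cdkn1a* and *Pdia6*, at distances of 0.0452 to 0.0572. *Etv5*, for instance, had group means of 7.52, 8.14 and 8.23. Of the 27 other striatal genes, *Rasgrp2* came nearest, in place 33 with a distance of 0.0804. With 3 means a gene many genes lie close, and the order of such distances has no error attached.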

How the data were processed

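Cortical RNA of 6 mice, 2 in each of 3 groups, was read on Affymetrix array strips for the mouse genome. The authors summarised the probe intensities by RMA in Expression Console and, in Transcriptome Analysis Console, deposited bi-weight averages of the log2 signal of each group for 45077 probe sets. RMA equalises the distributions of the arrays, which hides a shift common to all genes. Also deposited were linear fold changes, ANOVA p-values and FDR p-values of 2 comparisons, which were not used here. Groups came from the sample titles, and the SAMP8 control mean was equal in both tables at all 45077 probe sets.

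Differences of group means were computed in Python 3.11.15 with numpy 2.4.6 and pandas 2.3.3, checked on simulated data. Precision is limited by the number of arrays, and values of single mice were not used, so no test was made. Each symbol of an entry was counted as a gene, which gave 22527 genes, and 1253 probe sets count for several. Of 144 listed symbols 143 were on the array. The genes named are the 9, up to 30 listed genes with a difference of at least 0.25 in either comparison, and the 10 nearest in pattern, while other listed genes were named after their values were seen. The 9 genes and all lists were chosen with earlier results of these data known. Alternatives changed the probe set of a gene, the probe sets kept, the centring and the limit of 0.25. Some listed genes are not reported here by name.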

Additional observations from a re-analysis of the deposited data

How the results depend on the processing

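The direction of the 9 genes did not change in SAMP8 control vs. SAMR1 or in STEE-fed SAMP8 vs. SAMR1 under any alternative, which is no sign of stability for genes chosen with these means known. With the mean of all probe sets of a gene, the median difference was 0.42 for SAMP8 control vs. SAMR1, 0.54 for STEE-fed SAMP8 vs. SAMR1 and 0.05 for STEE. The genes higher by 0.25 then numbered 7 for SAMP8 control vs. SAMR1, without *Adora2a* (0.24) and *Rgs9* (0.23), and 8 for STEE-fed SAMP8 vs. SAMR1, without *Tac1* (0.24), because probe sets of lower signal enter the mean, and over all genes 3.21% and 4.19% were higher. With a limit of 0.5, 5 of the 9 stood above SAMR1 in the SAMP8 control. With a limit of 0.15, 1 gene, *Rgs9*, was higher with STEE. Over all genes, higher and lower counts were 957 and 866 for SAMP8 control vs. SAMR1 and 315 and 275 with STEE. At 0.5 they were 232 and 124, and 21 and 34, and at 0.15 they were 2483 and 2489, and 1478 and 1435. With the mean of all probe sets they were 722 and 613, and 202 and 179. STEE-fed SAMP8 vs. SAMR1 gave 1205 and 795 at 0.25, 246 and 130 at 0.5, 2840 and 2515 at 0.15, and 945 and 578 with the mean of all probe sets. Leaving out probe sets ending in _s_at or _x_at, or those at or below the median signal, or centring each group on its median moved no single difference of the 9 genes by more than 0.01. Among genes with a mean log2 signal above 6, 6.9% stood 0.25 above SAMR1 in the SAMP8 control, and among probe sets that list 1 symbol 3.89%, both chosen after seeing the data. No paired analysis was possible because only group means were used, and for the same reason no mouse could be left out.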

Other observations

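In STEE-fed SAMP8 vs. SAMP8 control, where the 9 genes stayed under 0.25, 5 of the 143 listed genes on the array differed by at least that much. Of all genes, 1.40% were higher and 1.22% lower by that limit, and nothing is read from the count. *Ttr*, the transthyretin of the choroid plexus, was higher by 1.09, with group means of 10.20 in SAMR1, 8.24 in the control and 9.33 in the STEE-fed SAMP8, while the other 8 choroid plexus markers differed by at most 0.09 in size. *Tbr1*, *Fezf2* and *Cux2*, transcription factors of cortical projection neurons, were higher by 0.29, 0.27 and 0.30. They are 3 of 11 listed markers of these neurons, of which 4 were below 0, and the median of the 11 was 0.09. *Th*, the first enzyme of dopamine synthesis, was lower by 0.58, with group means of 3.92, 3.81 and 3.23, all below the median signal of the array. None of these differences was tested.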
